A study of Mus musculus with 384 samples.

Results

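Oxidative phosphorylation genes of the nuclear and the mitochondrial genome were followed in single mouse mammary epithelial cells, before and after the luminal cells of the gland had been ablated. The members were the protein-coding genes whose symbols name subunits of NADH dehydrogenase, succinate dehydrogenase, cytochrome bc1 complex, cytochrome c oxidase or ATP synthase. Of 49585 genes counted, 107 had such a symbol, 10 of these were processed pseudogenes and were left out, and 97 were members. The nuclear genome holds 84 of them, with 37 in complex I, 4 in complex II, 8 in complex III, 18 in complex IV and 17 in complex V. The mitochondrial genome holds the other 13, whose symbols begin with mt.

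All mice carried the strain label K8rtta/TetO-DTA/K5CreER/Rosa-Tomato on a mixed background, the wild-type (WT) groups included. In this design the K8 promoter drives the doxycycline-dependent activator that switches on the diphtheria toxin gene in luminal cells, and K5CreER drives the Tomato label. WT glands have no doxycycline on record, whereas ablated glands were taken 1 week after 0.2 mg doxycycline was injected into the ducts. Between ablated and WT groups, the effects of injection, doxycycline, ablation and animal cannot be told apart. Cells were sorted as Tomato+ and CD29/EpCAM+ after removal of cells bearing CD45, CD31 or CD140a, and were sequenced by Smart-seq2, a full-length method that primes on poly(A). WT glands gave basal and luminal cells, and ablated glands gave basal, hybrid and luminal cells, which makes 5 groups. Hybrid is the submitters' label, and its gate is not described in the labels. Age was not among the labels used here.

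Of 374 wells with 1 cell, 327 reached the minimum of 100000 reads and 1000 genes and were kept. There were 44 WT basal and 46 WT luminal cells, and 71 basal, 87 hybrid and 79 luminal cells from ablated glands, each from a different well. They held 107635 to 3835005 reads, with group medians between 677373 reads (ablated basal) and 1363322 reads (WT luminal). The median number of genes detected per cell was 4621.5 in WT basal and 4503 in ablated basal cells, against 5738 in WT luminal, 6327 in ablated luminal and 6891 in hybrid cells. Detected genes per cell therefore moved with the basal and luminal labels, and their part in the results below was not tested. Within groups, cells with more detected genes also tended to give nuclear members a larger share of reads outside the mitochondrial genome, with Spearman's rho of 0.41 (44 WT basal), 0.35 (46 WT luminal), 0.23 (71 ablated basal), 0.11 (87 hybrid) and 0.48 (79 ablated luminal cells). Each group also had 1 library of many cells, which is given beside the single cells as a separate preparation. The labels do not tie cells to animals, so each group counts as 1 sample, no test between groups could be made, and differences could not be set against a spread between animals. The groups lie in blocks of adjoining lines of 1 plate, so group and plate position cannot be told apart either.

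Oxidative phosphorylation passes electrons from NADH (complex I) and succinate (complex II) through complexes III and IV to oxygen, and the proton gradient so made drives ATP synthase (complex V). Complex II is encoded wholly in the nucleus, while the other complexes join nuclear subunits with a few that are made inside the mitochondrion. Mitochondrial messenger RNAs are cut from long transcripts that cover nearly the whole circular genome. In the mammary gland, secretory luminal cells have a high demand for ATP during milk synthesis.

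Nuclear members took a larger share of the reads in luminal and hybrid cells than in basal cells. The median cell gave them 1.36% of its reads in WT basal (95% order-statistic interval over cells 1.14 to 1.5), 1.38% in ablated basal (1.26 to 1.56), 1.59% in WT luminal (1.44 to 1.88), 1.86% in hybrid (1.78 to 2.07) and 2.05% in ablated luminal cells (1.87 to 2.33). Cells of all groups overlapped, since single cells ranged from 0.566% to 2.37% in WT basal and from 0.367% to 4.10% in ablated luminal cells. Of 79 ablated luminal cells, 70 lay above the median of ablated basal cells, and 66 lay above the median of WT luminal cells. Of 87 hybrid cells, 78 lay above the ablated basal median and 35 above the ablated luminal median. With reads pooled over cells the shares were 1.41% (WT basal), 1.82% (WT luminal), 1.51% (ablated basal), 1.98% (hybrid) and 2.21% (ablated luminal). The libraries of many cells gave the same order, at 1.58%, 2.01%, 1.70%, 2.20% and 3.11%. In such a library, fewer cells of a type and less RNA per cell cannot be told apart. These intervals cover the spread of cells within 1 sample only, and a share of reads cannot separate more RNA of these genes from less RNA of others.

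Mitochondrial members followed another order. The median cell gave the 13 genes 2.52% of its reads in ablated basal (2.34 to 2.68) and 2.37% in WT basal cells (1.94 to 2.49), against 1.97% in hybrid (1.79 to 2.12), 1.77% in WT luminal (1.41 to 2.25) and 1.69% in ablated luminal cells (1.58 to 1.90). Only 14 of 79 ablated luminal cells lay above the ablated basal median. The ratio of nuclear to mitochondrial member reads in the median cell was 0.518 in ablated basal and 0.589 in WT basal cells, and it was 0.945 in WT luminal, 0.979 in hybrid and 1.19 in ablated luminal cells. Of the 13 genes, 6 had 0 to 3 reads each over all wells, as described below. The mitochondrial shares and this ratio thus rest on 7 genes and do not measure all mitochondrial messenger RNA. In 8 cells the mitochondrial genome held over 20% of all reads, 3 of them WT luminal, 2 hybrid and 3 ablated luminal cells. These 8 held 107635 to 589823 reads, and the share reached 68.1% in a WT luminal cell of 107635 reads. They weigh on pooled values: mitochondrial members took 2.17% (WT basal), 2.21% (WT luminal), 2.64% (ablated basal), 2.18% (hybrid) and 2.16% (ablated luminal) of pooled reads. Without the 8 cells, the WT luminal, hybrid and ablated luminal shares were 1.85%, 2.07% and 1.88%. The libraries of many cells did not share this order, with 2.36% in WT basal, 2.20% in WT luminal, 1.99% in hybrid, 1.88% in ablated basal and 1.87% in ablated luminal. The higher mitochondrial share of ablated basal cells was thus seen among single cells and not in the library of many cells.

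The relation of the nuclear to the mitochondrial share was close to 0 in 3 groups and larger in hybrid and ablated luminal cells. Across cells, Spearman's rho between the nuclear share of reads outside the mitochondrial genome and the mitochondrial member share was 0.03 (44 WT basal), -0.03 (46 WT luminal), -0.04 (71 ablated basal), 0.25 (87 hybrid) and -0.31 (79 ablated luminal cells). Without the cells of over 20% mitochondrial reads it was 0.20 over 85 hybrid and -0.23 over 76 ablated luminal cells, and Pearson's r went from 0.64 to 0.07 and from -0.45 to -0.32 in these 2 groups. The cells of a group share a plate block and differ in depth. The mitochondrial share was lower in cells with more reads, with rho from -0.21 (WT basal) to -0.60 (WT luminal). It was higher in cells with more mitochondrial ribosomal RNA, with rho from 0.38 (WT basal) to 0.68 (WT luminal).

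Of the 13 mitochondrial members, 7 were measured, meaning a mean of at least 5 reads per 1000000 reads (CPM) over the groups. They were the complex I genes mt-Nd1, mt-Nd2, mt-Nd4, mt-Nd5 and mt-Nd6, the cytochrome b gene mt-Cytb of complex III and the catalytic subunit gene mt-Co1 of complex IV. The other 6 lie side by side on the genome, between mt-Co1 and mt-Nd4. No read was counted in any of 384 wells for mt-Co2, mt-Atp8, mt-Atp6, mt-Co3 and mt-Nd4l, and 3 reads were counted for mt-Nd3. A count of 0 allows up to 3 reads, or 0.0311 to 0.0650 CPM in the 5 groups, so both mitochondrial subunits of complex V and 2 of the 3 mitochondrial subunits of complex IV have no usable value. The counted genes mt-Co1 and mt-Cytb had means of 5038 and 6436 CPM per kb.

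All but 1 of these uncounted genes are ones that a nuclear pseudogene repeats nearly letter for letter. In GENCODE M21 on GRCm38, the minus strand of chromosome 1 holds Gm28661, equal to mt-Co2 over 681 bases, Gm10925, equal to mt-Atp6 over 678, Gm28437, equal to mt-Co3 over 783, and Gm10222, equal to mt-Nd4l over 294. Gm28438 matches mt-Nd3 over 345 bases with 1 difference, T3C, counted from the first base of the gene. Words of 50 bases found in an annotated pseudogene made up 100% of mt-Co2, 99.9% of mt-Co3, 99.5% of mt-Atp6, 98.8% of mt-Nd4l and 98% of mt-Nd3. They made up 62.2% of mt-Nd4 and 51.1% of mt-Co1, under 10% of mt-Nd2 and mt-Nd5, and 0% of mt-Nd1, mt-Nd6 and mt-Cytb. The exception is mt-Atp8, which lies between mt-Co2 and mt-Atp6, was counted at 0 and shares no such word with an annotated gene. A read that fits the mitochondrion and such a copy equally well has 2 places to go, and whether the counting dropped such reads was not tested.

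The first 60 bases of mt-Nd3 and of its copy show the only base that separates them, in capitals. The stretches are shown because reads were assigned to the copy and not to the gene, and come from GENCODE M21 transcripts. They lie at chrM:9459-9518 on the plus strand and at chr1:24613060-24613119 on the minus strand of GRCm38.
mt-Nd3: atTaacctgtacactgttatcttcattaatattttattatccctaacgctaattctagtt
Gm28438: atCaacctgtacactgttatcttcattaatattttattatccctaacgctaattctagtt
Over all wells 3933 reads were counted for Gm28438 and 3 for mt-Nd3, and 301 of 327 kept cells had a Gm28438 read. Its level was 10.4 CPM in WT basal, 6.62 in WT luminal, 19.3 in ablated basal, 10.8 in hybrid and 7.72 in ablated luminal cells. The other copies held 0 to 29 reads each.

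The first 60 bases of mt-Co2 (chrM:7013-7072, plus strand) and of Gm28661 (chr1:24615506-24615565, minus strand) are the same sequence, whereas the start of mt-Cytb (chrM:14145-14204, plus strand) has no copy among annotated genes. They are set side by side since the first gene had 0 reads and the last was counted in all cells.
mt-Co2 and Gm28661: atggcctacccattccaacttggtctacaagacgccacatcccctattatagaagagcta
mt-Cytb: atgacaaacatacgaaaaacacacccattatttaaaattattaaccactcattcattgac

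**Figure D1:**
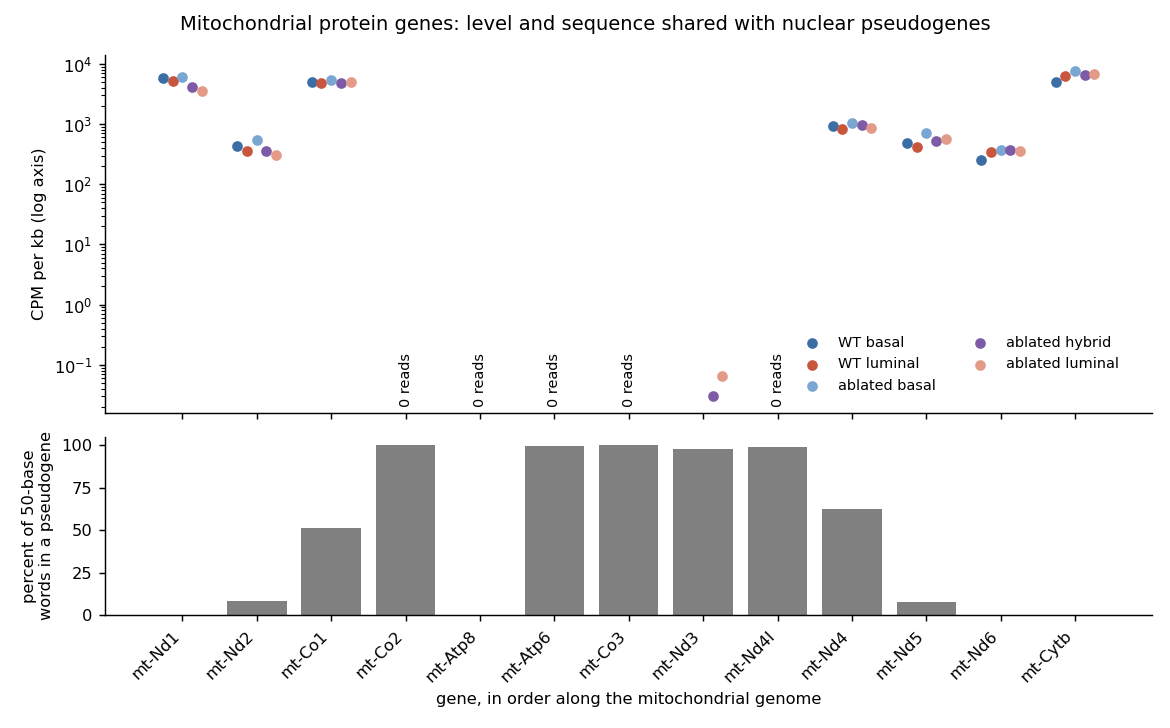
Level of each mitochondrial protein gene in pooled cells of the 5 groups (top, CPM per kb on a log axis) and the percent of its 50-base words found in an annotated pseudogene (bottom), in order along the mitochondrial genome. The run from mt-Co2 to mt-Nd4l has 0 reads apart from 3 for mt-Nd3, and all its genes but mt-Atp8 share at least 98% of their words with a pseudogene.

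Each of the 7 measured mitochondrial genes had its highest pooled level in ablated basal cells, as had 21.8% of all measured genes. mt-Cytb stood at 5707 CPM in WT basal, 7172 in WT luminal, 8641 in ablated basal, 7587 in hybrid and 7708 in ablated luminal cells. mt-Co1 varied less, at 7742, 7529.7, 8455, 7420.1 and 7775 CPM in the same order. mt-Nd1, the first protein gene after the ribosomal RNA genes, was instead lowest in the ablated luminal group, at 5527, 4963, 5833, 3977 and 3395 CPM. Its neighbour mt-Nd2 had a like order, at 451, 365, 566, 375 and 323 CPM. mt-Nd5 had 900.3, 773, 1283, 944 and 1035 CPM, and mt-Nd4 had 1259.6, 1151, 1452, 1315 and 1189.7 CPM. mt-Nd6, the only protein gene read from the other strand, was lowest in WT basal cells at 133 CPM and stood at 180.5 to 194 CPM elsewhere. Per kb, mt-Nd2, mt-Nd5 and mt-Nd6 had means of 401, 541 and 340.5 CPM, against 4952 for mt-Nd1. All of these but mt-Nd6 are cut from the same long transcript. The levels of mt-Co1 and mt-Nd4 are uncertain, since 51.1% and 62.2% of their 50-base words are found in an annotated pseudogene.

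Ratios between groups are log2 values with 10 CPM added to both levels, which damps those of low genes. The share of all measured genes above 0 in each comparison is the background for a count of members. In ablated against WT basal cells, all 7 measured mitochondrial genes were above 0 (all 11102 measured genes, 53.8%), with a median of 0.32 and a range of 0.08 to 0.60. In hybrid against ablated basal cells all 7 were below 0 (43%), with a median of -0.19, and in ablated luminal against ablated basal cells all 7 were again below 0 (43%), with a median of -0.28 and mt-Nd2 lowest at -0.79. These 3 comparisons share the ablated basal group and are not independent. In the libraries of many cells only 1 of 7 genes kept its sign in each of the 3, and the medians were -0.65, 0.18 and 0.23. With equal weight per cell, the median of ablated luminal against ablated basal was 0.051. That setting averages over cells, with the 3 ablated luminal cells of over 20% mitochondrial reads included. The median cell gave the mitochondrial members 1.69% of its reads in ablated luminal and 2.52% in ablated basal cells. WT luminal against WT basal gave 2 of 7 above 0 (50.7%) and a median of -0.13, which was -0.45 without the cells of over 20% mitochondrial reads and 1.02 with equal weight per cell. Ablated against WT luminal cells had 5 of 7 above 0 (62.5%), with mt-Nd1 at -0.55 and mt-Nd5 at 0.42 and a median of 0.05. That median was -0.71 with equal weight per cell and -0.20 in the libraries, where 1 of 7 genes kept its sign. Hybrid against ablated luminal cells had 4 of 7 above 0 (49.5%). No mitochondrial member reached a 2-fold ratio in any comparison, where 4.21% to 22.3% of all measured genes did so in 1 direction.

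Of the 84 nuclear members, 76 were measured. In WT luminal against WT basal cells 60 of the 76 were above 0 (all measured genes, 50.7%), with a median log2 ratio of 0.45 (95% order-statistic interval over members 0.21 to 0.58) against 0.01 over all genes. At 2-fold, 7 were higher (22.3% of all measured genes) and 2 lower (21.3%), so the members moved together by amounts that were mostly under 2-fold. The median was above 0 in each complex, at 0.45 (complex I), 0.65 (II), 0.44 (III), 0.35 (IV) and 0.32 (V). The median in the libraries of many cells was 0.37, and 48 of 76 members had the same sign there as in single cells.

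The largest ratios towards WT luminal cells belonged to small accessory subunits. Ndufc2 of complex I had 36.2 CPM in WT basal and 141 in WT luminal cells, and was detected in 11.4% and 56.5% of cells. Detection here means at least 5 reads after every cell was thinned at random to 100000 reads. Its log2 ratio of 1.71 was not shared by the libraries of many cells (-0.10, from 169.6 and 157 CPM). Uqcr10, a small subunit of complex III, had 17.2 and 72.6 CPM with a ratio of 1.60, and the libraries gave 30.5 and 121 CPM. Ndufa7 of complex I had 102 and 256 CPM with a ratio of 1.25, and 43.2 and 294 CPM in the libraries. Ndufb9 had 123 and 339 CPM, a ratio of 1.40, and the libraries went the other way at 356 and 259.6 CPM. Sdhd, a membrane anchor of complex II, had 95.1 and 219.9 CPM, with 289 and 204 CPM in the libraries. Ndufs3, a core subunit of complex I, had 23.6 and 63.5 CPM and a library ratio of -0.71. In the opposite direction, Atp5s, which encodes a coupling-factor relative rather than a core subunit of ATP synthase, had 119.8 CPM in WT basal and 15.0 in WT luminal cells (-2.38, and -2.52 in the libraries). It was detected in only 11.4% of WT basal cells, which keeps it outside the naming rule, and it is named after its values were seen. Next stood Sdhc, the other anchor of complex II, at 295 CPM in WT basal and 134 in WT luminal cells (-1.09). Cox5b of complex IV followed at 101 and 64.6 CPM (-0.57), and the complex I subunits Ndufb2 and Ndufb10 had 115 and 78.8 CPM (-0.50) and 177 and 125 CPM (-0.47). Ndufc2, Ndufb9, Sdhd, Ndufs3, Cox5b and Ndufb10 had a library ratio of the other sign.

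After ablation, basal cells stood close to WT basal cells as a list. Of 76 members 37 were above 0 (53.8%) and the median was -0.02 (-0.13 to 0.20), with 3 higher (19.8%) and 1 lower (15%) at 2-fold. Of complex I, 13 of 36 members were above 0 with a median of -0.13 (-0.36 to 0.05), against 24 of 40 members of complexes II to V. Complex V alone had 8 of 16 above 0. The interval of the median over members included 0 in each complex. Uqcr10 had 17.2 CPM in WT basal and 65.8 in ablated basal cells (1.48), and Ndufs3 had 23.6 and 68.2 CPM (1.22). Their library ratios were 0.88 and 0.38. Sdhd had 95.1 and 197 CPM (0.98) and Ndufc2 had 36.2 and 79.9 CPM (0.96), with library ratios of -0.05 and -0.58. Cox5b had 101 CPM in WT basal and 48.1 in ablated basal cells (-0.93), and Ndufa2, a complex I subunit, had 161 and 80.5 CPM (-0.91), but their library ratios were 1.05 and 2.11. Ndufb3 and Ndufb7, both of complex I, had 95.4 and 47.7 CPM (-0.87) and 96.5 and 49.3 CPM (-0.85). Atp5s had 119.8 CPM in WT basal and 12 in ablated basal cells (-2.56).

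In ablated against WT luminal cells, 54 of 76 members were above 0 (62.5%) with a median of 0.19 (0.10 to 0.27), but all measured genes had a median of 0.21. Under TMM scaling, which moved the median of all genes by -0.20, 29 of 76 were above 0 and the median was -0.09. No member was past 2-fold in either direction (15.2% of all measured genes higher, 6.57% lower). Among members detected in at least 25% of the cells of the higher group, Sdha, the flavoprotein of succinate dehydrogenase, had the largest ratio. It stood at 283 CPM in WT luminal and 526 in ablated luminal cells (0.87). Ndufv1, the NADH-binding subunit of complex I, followed at 221 and 393 CPM (0.80). Ndufv1 passed the detection limit in 34.8% of WT and 75.9% of ablated luminal cells. Cox7b had 137 and 243 CPM (0.78) and Ndufs1, the large iron-sulfur subunit of complex I, had 85.8 and 151 CPM (0.75). Under the same limit, the lowest was Ndufv3, an accessory subunit beside Ndufv1, with 203 and 98.5 CPM (-0.97). Next came 3 more accessory subunits of complex I, Ndufb3 at 99.2 and 61.5 CPM (-0.61), Ndufa13 at 156 and 111 CPM (-0.45) and Ndufs6 at 122 and 90.2 CPM (-0.39), with library ratios above 0 for all 3. The libraries of many cells gave a larger shift, with a median of 0.75, yet a ratio of -0.30 for Ndufv1. Summed alveolar luminal markers differed far more, at 24564 CPM in WT luminal and 3653 in ablated luminal cells, while 6 hormone-sensing luminal markers had 2740 and 2524 CPM. The part of this difference in marker levels in the members' ratios was not tested.

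Hybrid cells stood between ablated basal and ablated luminal cells for 54 of the 76 members (71.1%), as against 50.2% of all measured genes, with 11 members above both and 11 below both. Against ablated basal cells 62 of 76 were above 0 (57%), with a median of 0.31 (0.21 to 0.38) beside 0.14 over all genes. At 2-fold, 5 were higher (15.9%) and 1 lower (8.87%). Under TMM scaling 51 were above 0 and under median-of-ratios scaling 42, with the medians of all genes moved by -0.13 and -0.17. Against ablated luminal cells 62 of 76 were below 0 (50.4%), with a median of -0.18 (-0.28 to -0.12) and none past 2-fold (6.06% higher, 4.21% lower). That median was -0.062 with equal weight per cell and -0.52 in the libraries. Among members detected in at least 25% of the cells of the higher group, Uqcrh had the largest ratio of hybrid to ablated luminal cells (0.46). Uqcrh, the hinge protein of complex III, stood at 286 CPM against 253 in ablated basal and 205 in ablated luminal cells. It was detected in 96.6% of hybrid cells. Ndufa3, an accessory subunit of complex I, had 70.0 CPM in hybrid and 61.6 in ablated luminal cells (0.16). At the other end stood Ndufs1 with 91.2 and 151 CPM (-0.67), Uqcrq of complex III with 170.1 and 271 CPM (-0.64) and Ndufa8 of complex I with 106 and 171 CPM (-0.64). The library ratios had the other sign for Uqcrh (-0.04), Ndufa3 (-0.56) and Ndufs1 (0.43). They had the same sign for Uqcrq (-0.71) and Ndufa8 (-0.50). Members lower in hybrid than in ablated basal cells were few, and the lowest was Atp5l (-1.18), described below. Among members detected in at least 25% of the cells of the higher group, Ndufa5 was lowest at 52.3 against 74.4 CPM (-0.44). Then came Cox6c at 153 against 193 CPM (-0.32), Cox7a2l at 155 against 189 CPM (-0.26) and Ndufa1 at 60.7 against 74 CPM (-0.25). Of these, Ndufa5 (1.17) and Ndufa1 (0.71) had library ratios above 0, while Cox6c (-0.19) and Cox7a2l (-0.24) stayed below it.

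Nuclear members also stood higher in ablated luminal than in ablated basal cells. Of 76 members 65 were above 0 (57%), with a median of 0.48 (0.36 to 0.66) beside 0.15 over all genes, and a median of 0.32 under TMM scaling. At 2-fold, 9 were higher (19.1%) and 1 lower (13.2%). The library median was 0.83, with 68 of 76 members of the same sign in cells and libraries. The lowest ratio was that of Atp5l (-1.03), described below. Members detected in at least 25% of the cells of the higher group were lowest for Ndufa5 (-0.45) and Uqcrh (-0.29). Next stood Cox7a2l, a factor for supercomplexes of complexes III and IV (-0.26), and Sdhc (-0.23). The library ratios of these last 4 were 0.84, -0.18, -0.48 and 0.06. Counted over all 5 groups, 38 of 76 members (50%) had their highest level in ablated luminal cells, as had 21.2% of all measured genes. Of the 76, 33 (43.4%) had their lowest level in WT basal cells (33.6% of all measured genes), and 32 (42.1%) in ablated basal cells (23%).

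**Figure D2:**
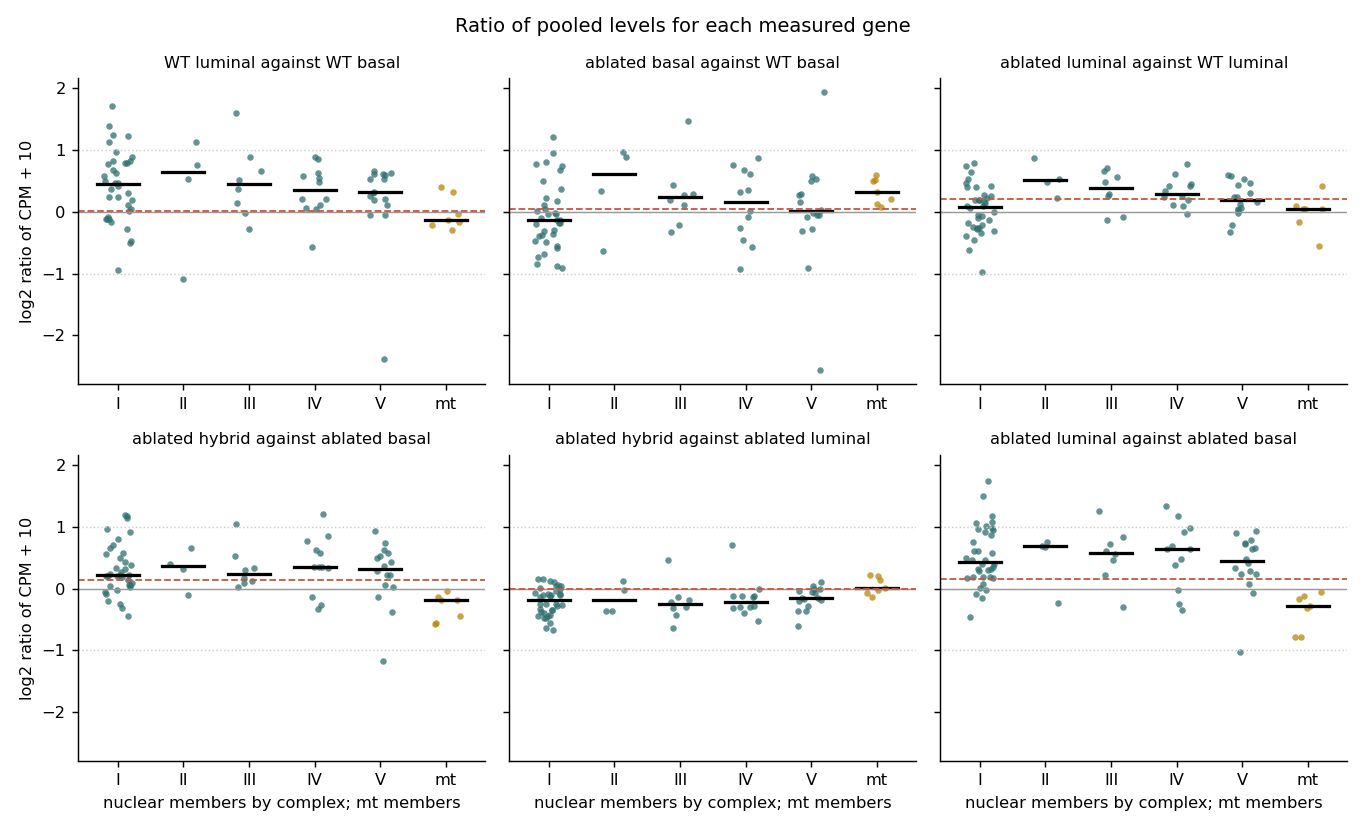
Log2 ratio of pooled levels after adding 10 CPM for each measured gene, with 1 panel per comparison, 1 point per gene, nuclear members by complex and mitochondrial members (mt) in gold, black bars for medians, a dashed line for the median of all measured genes and dotted lines at 2-fold. Nuclear members lie mostly above 0 in ablated luminal against ablated basal cells (65 of 76), where all 7 mitochondrial members lie below it.

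Ndufa9, a subunit of complex I next to its quinone site (chr6:126821721-126849136), had the largest ratio between ablated luminal and ablated basal cells under the naming rule, at 1.74. Its level was 163 CPM in WT basal, 288 in WT luminal, 97.3 in ablated basal, 233 in hybrid and 349 in ablated luminal cells. The median cell had 1.30, 131, 1.22, 125 and 246 CPM in the same order, so the WT basal pool rests on few cells, the highest of which reached 3182 CPM. It was detected in 11.4% and 16.9% of WT and ablated basal cells, and in 56.5%, 59.8% and 69.6% of WT luminal, hybrid and ablated luminal cells. The ablated basal library had 2.64 CPM and the ablated luminal library 301, but the WT basal library had 363.

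Ndufb9 (chr15:58933756-58939488) had a like pattern, with median cells at 2.69, 252, 7.04, 288 and 329.6 CPM in the same order of groups. Its ratio of ablated luminal to ablated basal cells was 1.5 in single cells and 1.22 in the libraries. Ndufb8, also of complex I, had 117, 211, 94.3, 227 and 211 CPM, with a hybrid to ablated basal ratio of 1.18.

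Uqcrfs1, the Rieske iron-sulfur protein of complex III (chr13:30540308-30545362), had 221, 289, 174, 371 and 431 CPM, and was detected in 33.8% of ablated basal against 80.5% of hybrid and 78.5% of ablated luminal cells. The libraries had 40.9 CPM in ablated basal, 483 in hybrid and 391 in ablated luminal. Cox6b1 of complex IV (chr7:30616861-30626151) had 231, 350.3, 153, 366 and 402 CPM, with the largest ratio of hybrid to ablated basal cells, at 1.20. It was found in most cells of each group, in 50.7% of ablated basal and 97.7% of hybrid cells, and the library ratio was 0.57. Cox5a, another subunit of complex IV, had 76.9, 124, 53.7, 99.2 and 134 CPM.

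Succinate dehydrogenase, which also serves the citric acid cycle, had its 4 genes at unlike patterns. Sdha had 163 CPM in WT basal, 283 in WT luminal, 308 in ablated basal, 408 in hybrid and 526 in ablated luminal cells. Sdhb, the iron-sulfur subunit, had 166, 246, 214, 343 and 349 CPM. Sdhd had 95.1, 219.9, 197, 249 and 323 CPM, while Sdhc had 295, 134, 187, 173 and 158 CPM. Sdhc was the only one of the 4 with its highest pooled level in WT basal cells, yet it was detected in 36.4% of those cells against 70.1% of hybrid cells. The WT basal library had 138 CPM of Sdhc, below the 292 CPM of the ablated basal library.

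The most abundant nuclear members were Atp5b and Atp5a1, the catalytic and alpha subunits of ATP synthase, and Cox4i1 of complex IV. These 3 made up 29.9% to 33.8% of the nuclear member reads in every group. Atp5b had 2179.6 CPM in WT basal, 2493 in WT luminal, 2432 in ablated basal, 3298 in hybrid and 3377 in ablated luminal cells. Cox4i1 had 999, 1812, 1274, 1629 and 1771 CPM, and had the highest level per kb of any nuclear member, with a mean of 966. Without these 3 genes the nuclear share was still ordered alike, at 0.977% of pooled reads in WT basal, 1.00% in ablated basal, 1.27% in WT luminal, 1.33% in hybrid and 1.53% in ablated luminal cells.

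Of members called at 2-fold, 29 pairs of member and comparison involving 17 genes, 25 stayed past 2-fold when the cell with most reads of the gene was left out of each group. Sdhc did not in WT luminal against WT basal cells, where -1.09 became -0.98. Atp5l, subunit g of ATP synthase, did not in any comparison where it was called, and a single cell held 87.9% of its ablated basal reads. Its ratio of ablated to WT basal cells went from 1.94 to 0.42 without such cells. Its ratios of -1.18 (hybrid) and -1.03 (ablated luminal) against ablated basal cells became 0.042 and 0.15. In the libraries 24 of the 29 had the same sign and 15 were past 2-fold. The share of all measured genes past 2-fold there was not computed, so these counts have no background. Ratios past 2-fold were common in the libraries. Of all 76 measured nuclear members, 21 were higher and 6 lower in WT luminal against WT basal, and 33 and 1 in ablated luminal against ablated basal.

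**Figure D3:**
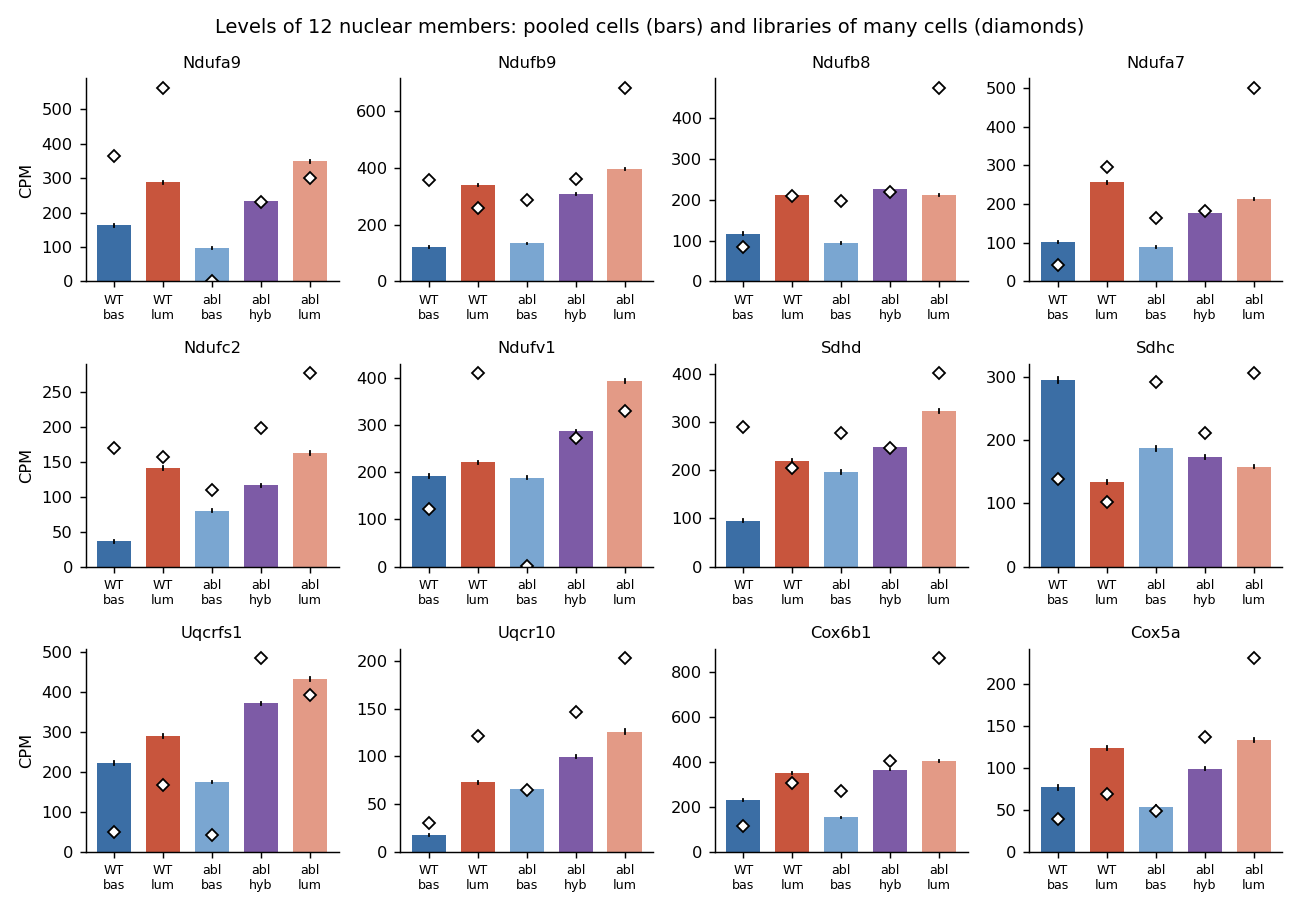
Pooled level in CPM of 12 nuclear members in the 5 groups (bars, with exact Poisson 95% intervals that cover counting error only) and in the library of many cells of each group (white diamonds). For Ndufa9, Ndufb9, Uqcrfs1 and Cox6b1 both luminal groups and hybrid cells stand above both basal groups, whereas Sdhc is highest in WT basal cells, and diamonds depart widely from bars for genes such as Ndufv1 in ablated basal cells.

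Low levels of some nuclear members went with sequence shared with pseudogenes. In 9 of the 84, at least 10% of 50-base words were found in an annotated pseudogene, and these had a median of 29.8 CPM per kb against 91.5 for the other 75. Uqcrb, the lowest measured member of complex III per kb at 67.3, shared 25.4% of its words, and Ndufb4, the lowest of complex I at 4.70, shared 18.3%. Within the other complexes, the measured members lowest per kb were Sdhc (58.3), Cox6b2 (6.97) and Atp5l (1.66), and the highest in each were Ndufa2 (252), Sdhd (176), Uqcrfs1 (218), Cox4i1 (966) and Atp5b (650.5). The part of shared sequence in these levels was not tested, and the levels of Uqcrb, Ndufb4, Ndufs3 (16.1% shared) and Cox7a2l (13.8%) are uncertain for that reason. Ndufb9 and Ndufa13 are uncertain for another: 15.6% and 28.5% of their words are shared with any other annotated gene, mostly with the overlapping genes Gm49356 and Tssk6.

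Subunit isoforms restricted to muscle, testis, lung or hypoxic cells were nearly absent. Cox6a2, Cox7b2, Cox8c and Ndufa4l2 had 0 reads in all wells, and Cox8b had 22 reads in all, from 1 hybrid cell. Cox7a1, the heart and muscle isoform, passed the detection limit in 1 of 46 WT luminal cells (2.17%), with a pooled level of 5.29 CPM, and in 5.06% of ablated luminal cells, with 4.33 CPM. Cox4i2, the lung isoform, had 12.4 CPM in WT basal cells and at most 1.89 elsewhere, with 61.9% of the WT basal reads from 1 cell. It was the member just under the measured limit with a mean of 3.22 CPM, and Cox6b2, the testis isoform, was just over it with 7.72 CPM. Their ubiquitous partners Cox4i1, Cox6a1, Cox6b1, Cox7a2, Cox7b, Cox8a and Ndufa4 were all measured. All 7 were above 0 in WT luminal against WT basal cells (all measured genes, 50.7%), with a median of 0.58. They were also above 0 in ablated luminal against ablated basal cells (57%), with a median of 0.64. In hybrid against ablated luminal cells all 7 were below 0 (50.4%), with a median of -0.29. The nuclear members as a whole had medians of 0.45, 0.48 and -0.18 in these comparisons.

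Promoters of nuclear members are known for binding sites of nuclear respiratory factor 1 and of ETS-family factors, and the letters of such sites were looked up in RefSeq promoters on GRCm38.p6, from 250 bases before to 50 after the start. Of 84 nuclear members 68 matched by symbol. The core word of nuclear respiratory factor 1, GCGC followed by any base and TGCGC, was in 25% of the 68 promoters and in 5.19% of all 27025. The ETS word CCGGAAG was in 23.5% and 9.93%, the YY1 word AAGATGGCG in 10.3% and 1.64%, and CCAAT in 44.1% and 41.1%, each on both strands and with overlaps between words allowed. Such matches describe letters only. Members with the first word were ordered by group like the others: their median ratio was 0.53 (16 genes) against 0.45 (48 genes without it) in WT luminal against basal cells, and 0.35 against 0.59 in ablated luminal against ablated basal cells.

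The 100 bases before the start are shown for 3 members whose levels are described above, with the first word and the ETS word in capitals. Sdha has the first word in 3 places (chr13:74350241-74350340, minus strand), Sdhd has both words (chr9:50603850-50603949, minus strand), and Cox6b1 has only the ETS word in these bases (chr7:30626115-30626214, minus strand).
Sdha: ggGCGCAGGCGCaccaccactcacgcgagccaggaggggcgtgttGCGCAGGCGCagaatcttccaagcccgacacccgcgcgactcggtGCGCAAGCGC
Sdhd: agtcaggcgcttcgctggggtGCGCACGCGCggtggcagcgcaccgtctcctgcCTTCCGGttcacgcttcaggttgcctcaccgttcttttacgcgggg
Cox6b1: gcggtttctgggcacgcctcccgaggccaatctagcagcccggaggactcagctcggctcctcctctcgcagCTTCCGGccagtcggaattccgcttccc

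Other gene lists of the mitochondrion were set beside the members. Of the mitochondrial ribosome, which translates the mt messenger RNAs, 36 of 55 measured genes were above 0 in WT luminal against WT basal cells (50.7% of all measured genes), with a median of 0.45 in single cells but 0.14 in the libraries. In ablated luminal against ablated basal cells 49 of 55 were above 0 (57%), with medians of 0.45 and 1.25, and 9 were 2-fold higher (19.1%) and 0 lower (13.2%). Among them Mrps28 had 10.6 CPM in WT basal and 134 in WT luminal cells, and Mrpl24 had 63.4 in ablated basal and 183 in ablated luminal cells. Of 30 measured assembly factors and further subunits of complexes II to V, 23 and 21 were above 0 in the same comparisons (medians 0.44 and 0.48, and 0.11 and 0.71 in the libraries), and Atpaf2, an assembly factor of ATP synthase, had 13.9 CPM in WT basal and 106 in WT luminal cells. For complex I the 14 such genes gave medians of 0.14 and 0.10.

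Citric acid cycle genes were above 0 for 6 of 13 in WT luminal against WT basal single cells (median -0.05), but their library median was 0.94. Among them Fh1 (fumarase) had 9.53 CPM in WT basal and 158 in WT luminal cells. In ablated against WT luminal cells 11 of 13 were above 0 (62.5% of all measured genes), with a median of 0.48 beside 0.21 over all genes. In the libraries the list had 0.24 and all genes 0.30. Of its genes, Cs (citrate synthase) had 123 and 283 CPM, with a library ratio of -0.43, and Mdh2 (malate dehydrogenase) had 388 and 837 CPM, with 1.61. Glycolysis and lactate genes were above 0 for 11 of 21 in WT luminal against WT basal cells and 13 of 21 in ablated luminal against ablated basal cells. Cytosolic ribosomal protein genes, a reference of abundant transcripts, lay in the opposite direction to the nuclear members, with 15 of 44 above 0 (median -0.21) and 16 of 44 (median -0.12).

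**Figure D4:**
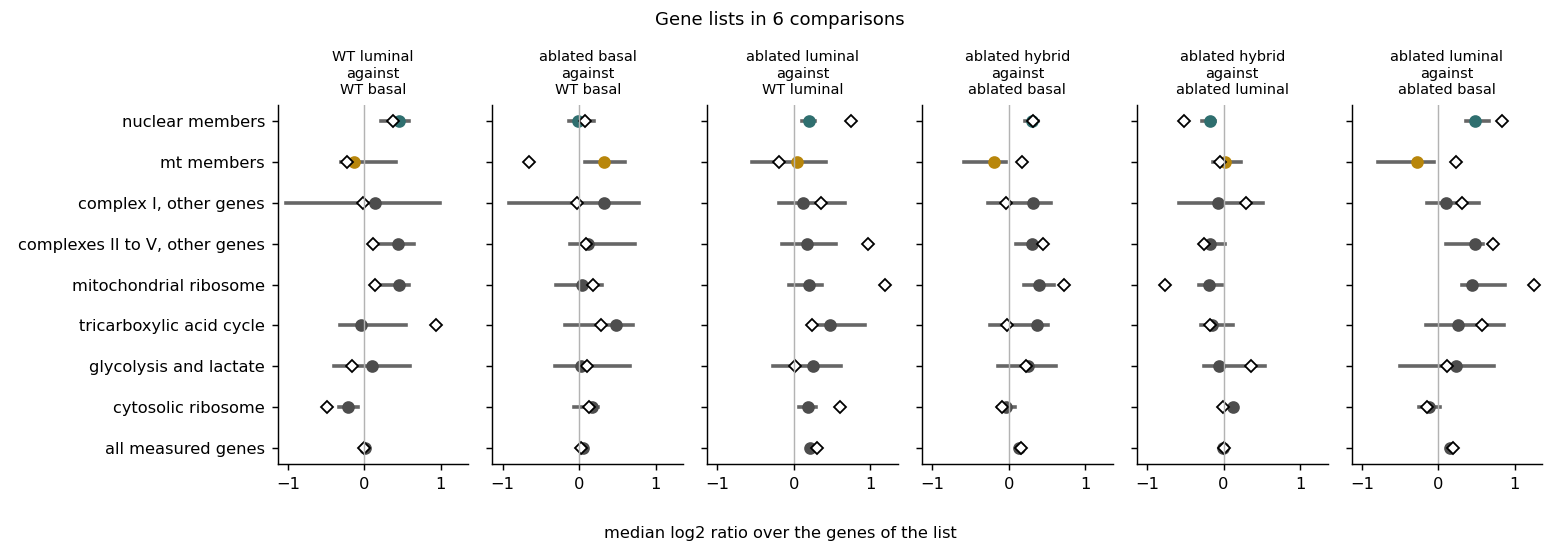
Median log2 ratio of gene lists (circles, with 95% order-statistic intervals over the genes of the list) and the same median in the libraries of many cells (diamonds) for the 6 comparisons. Nuclear members and the mitochondrial ribosome share a median of 0.45 in WT luminal against WT basal cells, while the cytosolic ribosome has -0.21.

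Lineage markers went with the labels of the groups, except that ablated luminal cells held far more basal marker reads than WT luminal cells. The summed level of 10 basal myoepithelial markers was 21157 CPM in WT basal, 33949 in ablated basal, 17869 in hybrid, 6391 in ablated luminal and 169 in WT luminal cells, and that of 9 luminal markers was 1616, 1121, 14541, 23597 and 27886 CPM. Markers of fibroblasts (6 genes, 91.4 to 1954 CPM, highest in ablated basal) and of erythroid cells (5 genes, 791 CPM in hybrid and 0 to 11.3 elsewhere) also differed between groups, and their part in the results was not tested. The 5 white adipocyte markers summed to at most 0.170 CPM, and the 5 brown adipocyte markers to at most 32.9 CPM. The 5 negative control wells held a mean of 217 nuclear and 296 mitochondrial member reads, or 1.20% and 1.35% of the median kept cell. Among the 74 members with a mean of at least 50 CPM, Poisson intervals of pooled levels reached at most 7.20% to either side. No molecular identifiers were used, so PCR copies count as reads and these intervals hold counting error alone.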

How the data were processed

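For 384 wells of mouse mammary cells the authors deposited raw read counts of genes, not normalized. Tools named in the submitters' processing notes, with no role, are STAR 2.5.2b, HTSeq 0.6.0, cutadapt 1.13 and Seurat, and the build is GRCm38. The annotation and strand setting used in counting are not given in the sources used, so reads of overlapping genes on opposite strands cannot be told apart. Symbols, exon lengths and sequences come from GENCODE M21, which holds 49326 of the gene identifiers, and 92 spike-in sequences with 11 reads in all were not used.

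From the counts, levels were reads summed over kept cells, scaled to CPM. Genes whose mean over the groups reached 5 CPM were called measured (11102 genes), and a call was a 2-fold ratio after adding 10 CPM. Medians have 95% order-statistic intervals. No mitochondrial limit was set on cells, since that share is a measurement here. Doublets were not searched for, and groups count as 1 sample each, so no test was made. Named were all mitochondrial members, the 4 highest and 4 lowest nuclear ratios per comparison among members detected in 25% of the cells of the higher group, the extremes per kb of each complex, 2 isoform lists, the members next to the measured limit and up to 3 genes of other lists. The values of 1 gene that this rule names are not reported here. Members called at 2-fold were added after their values were seen, as were Sdhb, Atp5a1 and the promoters printed. The members and lists were chosen with earlier results of these data known. Scripts were tested on simulated data. Tools were Python 3.11.15, pandas 2.3.3, scipy 1.17.1, R 4.3.3 and edgeR 4.0.16 (TMM factors only).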

Additional observations from a re-analysis of the deposited data

How the results depend on the processing

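Each median was recomputed with 1 choice changed at a time, 174 times in all. Of these, 77 nuclear and 75 mitochondrial values stayed inside the interval of the main value. Outside it lay 11 nuclear and 5 mitochondrial values, and 2 and 4 more turned sign where the interval excluded 0. For the 7 mitochondrial genes the interval is their whole range, so staying inside it shows little. No paired analysis was possible because no result comes from a test and each group is 1 sample. For nuclear members, TMM scaling gave -0.090 (ablated against WT luminal), 0.16 (hybrid against ablated basal) and 0.32 (ablated luminal against ablated basal), and median-of-ratios scaling gave -0.12, 0.078, 0.28 and, for ablated against WT basal, -0.18. Equal weight per cell gave 0.39 (hybrid against ablated basal) and -0.062 (hybrid against ablated luminal). Leaving out the cell with most reads of a gene gave 0.28 (ablated against WT luminal), and libraries of many cells gave 0.75 (ablated against WT luminal), -0.52 (hybrid against ablated luminal) and 0.83 (ablated luminal against ablated basal). For mitochondrial members, limits of 20% and 10% mitochondrial reads both gave -0.45 in WT luminal against WT basal cells. Equal weight per cell gave 1.02 there, -0.71 (ablated against WT luminal), -0.032 (hybrid against ablated basal) and 0.051 (ablated luminal against ablated basal). In that setting, cells of few reads and a high mitochondrial share count in full. Libraries of many cells gave -0.65 (ablated against WT basal), 0.18 (hybrid against ablated basal) and 0.23 (ablated luminal against ablated basal). The cause of these differences was not tested.

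Among the 29 called pairs, signs turned for Atp5l without its top cells (0.042 against ablated basal in hybrid, 0.15 in ablated luminal) and in the libraries (0.087 in hybrid), and for Ndufb9 (-0.44), Ndufc2 (-0.10), Ndufs3 (-0.71) and Sdhd (-0.48) of WT luminal against WT basal in the libraries. In the order of the comparisons above (WT luminal against WT basal, ablated against WT basal, ablated against WT luminal, hybrid against ablated basal, hybrid against ablated luminal, ablated luminal against ablated basal), the number of nuclear members called was 9, 4, 0, 6, 0 and 10 at 2-fold, 30, 25, 11, 18, 5 and 36 at 1.5-fold and 3, 2, 0, 0, 0 and 1 at 3-fold. In the libraries 21, 17, 23, 16, 0 and 33 were 2-fold higher and 6, 5, 1, 1, 9 and 1 lower. With median-of-ratios scaling, 3 were 2-fold higher and 6 lower in ablated against WT basal, 0 and 1 in hybrid against ablated basal, and 4 and 1 in ablated luminal against ablated basal cells. For the libraries, the other folds and this scaling, the share of all measured genes called was not computed. Those counts therefore have no background to be read against. The median share of cells that detected a nuclear member ran from 29.5% (WT basal) to 75.9% (ablated luminal), from 47.7% to 89.2% at 1 read and from 18.2% to 31% at 20 reads, so detection depends on the read limit while these 2 groups kept their order.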
